A study of Mus musculus with 8 samples.

Results

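*Prss22* and *Mela* are 2 genes whose cortical signal was high in SAMP8 mice, the senescence-accelerated strain, and low in SAMR1 mice, the senescence-resistant strain. They were chosen by their log2 signal in SAMP8 minus SAMR1 among 19761 genes on the array, so the strain values of these genes are given as a description, with no test. Every probe set that carries 1 of these symbols was taken, which gave 4 of 45037 probe sets, 1 for *Prss22* (1420352_PM_at) and 3 for *Mela* (1433438_PM_x_at, 1456182_PM_x_at and 1456456_PM_x_at). No probe set named either gene together with a further symbol. The ending x_at marks probe sets in which some probes can match other transcripts, so the *Mela* signal may hold RNA of related sequences.

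The arrays measured RNA from the cerebral cortex of untreated male mice in 4 groups of 2 arrays, which were SAMP8 at 1 year, SAMR1 at 1 year, SAMP8 at 16 weeks and SAMR1 at 16 weeks. Both are inbred strains, and no transgene or treatment separates them, so a strain difference here covers all the genetic differences between 2 lines. Anything else that differed between the groups of the 2 strains cannot be told apart from these. In the deposited labels the genotype of SAMP8 samples is spelled SAMR8, so the sample titles were used to assign the strain. Each value is a log2 signal after robust multichip averaging (RMA), a method that corrects background, equalises the arrays and summarises the probes of a set, so a step of 1 is a doubling of signal. The arrays of SAMR1 at 16 weeks stood furthest apart, with 98 probe sets that differed by over 1 between them, led by the choroid plexus gene *Ttr*, against 4 to 31 in the other groups. In bulk cortex, fewer cells of a type and less RNA per cell cannot be told apart.

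*Prss22* encodes a secreted serine protease of the tryptase family. It is best known from epithelia such as the airway, and the human enzyme can activate the precursor of urokinase, the plasminogen activator. *Mela* is the entry for an antigen of mouse melanoma cells that was traced to an endogenous ecotropic murine leukaemia virus, a provirus carried in the germ line of some mouse strains. Ecotropic viruses enter mouse cells through the cationic amino acid transporter Slc7a1, and host factors such as Fv1, Apobec3 and Bst2 restrict them, while the Trim28 and Setdb1 machinery silences proviral chromatin. Tissues of a mouse can differ in viral RNA because proviruses can be silent, transcribed, or copied to new cells by infection.

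The *Prss22* signal was 7.16 and 7.24 on the 2 arrays of SAMP8 at 1 year, against 4.71 and 4.65 in SAMR1 at 1 year. At 16 weeks it was 7.49 and 7.23 in SAMP8, against 5.27 and 4.92 in SAMR1. All 4 SAMP8 arrays lay above all 4 SAMR1 arrays, with a gap of 1.89 between the lowest SAMP8 and the highest SAMR1 value. Such a separation was found for 2.43% of all probe sets (1093 of 45037), and it is what the choice of these genes selects for. The group means were 7.20 ± 0.06 in SAMP8 and 4.68 ± 0.04 in SAMR1 at 1 year, and 7.36 ± 0.18 in SAMP8 and 5.10 ± 0.25 in SAMR1 at 16 weeks (SD, n = 2 each). The strain difference of *Prss22* was 2.52 on the log2 scale at 1 year, a 5.74-fold higher signal in SAMP8, and 2.27 at 16 weeks, a 4.81-fold higher signal, each with a standard error of 0.12. Of all probe sets, 10 had a larger rise in SAMP8 over SAMR1 at 1 year and 12 at 16 weeks.

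The first *Mela* probe set, 1433438_PM_x_at, gave signals of 8.67 and 8.01 in SAMP8 at 1 year, against 5.49 and 3.60 in SAMR1 at 1 year. At 16 weeks the signals were 6.58 and 7.75 in SAMP8, against 3.67 and 3.59 in SAMR1. The strains did not overlap, but the arrays of a group were often far apart, unlike those of *Prss22*. The strain difference of this probe set was 3.80 at 1 year (13.9-fold in measured signal) and 3.54 at 16 weeks, with a standard error of 0.57. Its SAMR1 signal was not above background at 16 weeks and barely above it on replicate 2 at 1 year, so these are no exact sizes. The second, 1456182_PM_x_at, gave 8.36 and 7.92 in SAMP8 at 1 year, against 4.68 and 2.70 in SAMR1 at 1 year. At 16 weeks it gave 6.29 and 7.51 in SAMP8, against 2.71 and 2.50 in SAMR1. Its measured strain difference was 4.45 at 1 year and 4.30 at 16 weeks, with a standard error of 0.58, but 3 of the 4 SAMR1 arrays were not above background, so no exact fold is given for it. The third, 1456456_PM_x_at, gave 7.80 and 7.43 in SAMP8 at 1 year, against 5.50 and 5.11 in SAMR1 at 1 year. At 16 weeks it gave 5.64 and 7.42 in SAMP8, against 5.13 and 5.03 in SAMR1. Its strain difference was 2.31 at 1 year (4.96-fold) and 1.45 at 16 weeks (2.73-fold), with a standard error of 0.45, and its lowest SAMP8 array lay only 0.14 above its highest SAMR1 array.

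**Figure D1:**
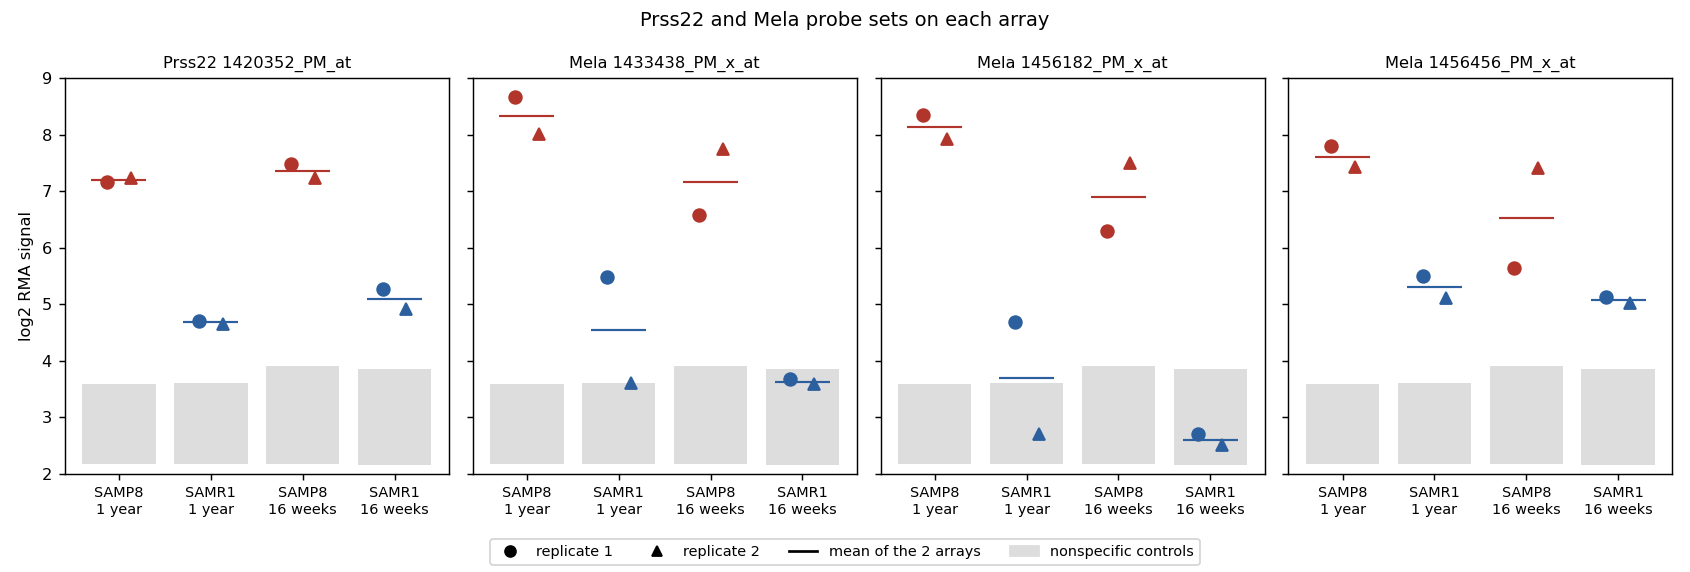
Log2 RMA signal of the *Prss22* probe set and the 3 *Mela* probe sets on each of the 8 arrays, by group. Circles are replicate 1, triangles replicate 2, lines the mean of 2 arrays, and grey bars the range of 22 nonspecific control probe sets on the arrays of that group. *Prss22* lies between 7.16 and 7.49 in SAMP8 and between 4.65 and 5.27 in SAMR1, while *Mela* falls into the grey range on SAMR1 arrays for 2 of its probe sets.

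Part of the *Mela* fold sizes rests on a SAMR1 signal at the level of background. The array carries control probe sets with no target, and the 22 whose probes hold 3 to 24 G or C bases were used as the measure of background. They had medians between 2.49 and 2.56, with the highest of them between 3.57 and 3.90 on the 8 arrays. A further control probe set, whose probes hold only G and C bases, had 6.65 to 7.07 and was left out of this range after its values were seen. It is above the SAMR1 signals of all 4 probe sets. On SAMP8 at 16 weeks replicate 1, where it had 7.07, it is also above the signals of all 3 *Mela* probe sets. Probe set 1456182_PM_x_at was within this range in SAMR1 at 16 weeks, above 13 and 10 of the 22 controls, and on replicate 2 of SAMR1 at 1 year, above 15 of them. Probe set 1433438_PM_x_at was above 21 of the 22 on both SAMR1 arrays at 16 weeks and above all 22 on both SAMR1 arrays at 1 year. On replicate 2 of SAMR1 at 1 year this was narrow, with a signal of 3.60 against 3.59 for the highest control. With each SAMR1 array at 16 weeks raised to its highest control, the signal in SAMP8 at 16 weeks was at least 10.1-fold higher for 1433438_PM_x_at and at least 8.43-fold higher for 1456182_PM_x_at. At 1 year, with replicate 2 of SAMR1 raised in the same way and replicate 1 as measured, it was at least 16.1-fold higher for 1456182_PM_x_at. The third probe set and *Prss22* were above all 22 controls on every array, and the SAMR1 signal of 1456456_PM_x_at was 5.03 to 5.50.

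The 3 *Mela* probe sets placed the 8 arrays in the same order. From high to low this was SAMP8 at 1 year replicate 1, SAMP8 at 1 year replicate 2, SAMP8 at 16 weeks replicate 2, SAMP8 at 16 weeks replicate 1, SAMR1 at 1 year replicate 1, SAMR1 at 16 weeks replicate 1, SAMR1 at 1 year replicate 2 and SAMR1 at 16 weeks replicate 2. They share the array and may share probes or transcripts, so this order is 1 measurement made 3 times and no replication. *Prss22* did not follow it. Among the SAMP8 arrays *Prss22* was highest, at 7.49, on replicate 1 at 16 weeks, where each *Mela* probe set had its lowest SAMP8 value, and it was lowest, at 7.16, on replicate 1 at 1 year, where each *Mela* probe set had its highest.

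On a single SAMR1 array, replicate 1 at 1 year, each *Mela* probe set was higher than on the other 3, and by over 1 log2 unit for 2 of the 3 probe sets. On it 1433438_PM_x_at was 1.87 above the mean of the other 3 SAMR1 arrays in measured signal, and at least 3.34-fold higher with those arrays raised to their highest control. Probe set 1456182_PM_x_at was 2.04 above them in measured signal, and at least 1.91-fold higher with the same floor. Probe set 1456456_PM_x_at was 0.41 above them (1.33-fold), with all SAMR1 arrays above the controls. The signal stayed below the lowest SAMP8 array by 1.09, 1.61 and 0.14 for the 3 probe sets in this order. Between the 2 SAMR1 arrays at 1 year, the gap of 1.98 of 1456182_PM_x_at was the largest of all 45037 probe sets and that of 1433438_PM_x_at, 1.89, was the next. Without that array the strain difference at 1 year was 4.74 for 1433438_PM_x_at, whose signal on the SAMR1 array left was barely above the controls. For 1456182_PM_x_at SAMP8 was then at least 23.4-fold higher, with the array left raised to its highest control. Only 4 probe sets had a gap over 1 between these arrays, where the median gap was 0.07, so the 2 arrays were otherwise close. The *Prss22* signal did not differ in the same way, with 4.71 on replicate 1 and 4.65 on replicate 2. The summary of leukocyte markers (17 genes, mean log2 signal) was 4.27 on replicate 1 and 4.24 on replicate 2, and that of nucleic acid sensing and interferon genes was 4.31 and 4.30.

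The SAMP8 arrays at 16 weeks also differed in *Mela*, here most for 1456456_PM_x_at, the probe set with the smallest gap, 0.39, between the SAMR1 arrays at 1 year. Replicate 1 was below the mean of the other 3 SAMP8 arrays by 1.56 for 1433438_PM_x_at, by 1.64 for 1456182_PM_x_at and by 1.91 for 1456456_PM_x_at. Its gap to replicate 2 was 1.17, 1.22 and 1.78 for the 3 probe sets, and 18, 16 and 3 probe sets of the array had a larger gap between these 2 arrays. Without replicate 1 the strain difference of 1456456_PM_x_at at 16 weeks was 2.34, and without replicate 2 it was 0.56. In a list of 16 markers of regions outside the cortex, 10 were higher on replicate 1 than on replicate 2, and 4 of them were higher by over 0.5. These were *Cdhr1*, *Doc2g*, *Eomes* and *Th*, genes of the olfactory bulb, singled out after their values were seen. *Cdhr1*, a cadherin of olfactory projection neurons, was 6.87 on replicate 1 and 4.78 on replicate 2. At 1 year 6 of the 16 were higher on the SAMP8 array with the lower *Mela* signal. The same 4 genes were higher by over 0.5 on that array, which is replicate 2, and *Cdhr1* was 5.26 on replicate 1 and 7.23 on replicate 2. The mean of the whole list was 5.60 and 5.85 on SAMP8 replicates 1 and 2 at 1 year, and 5.83 and 5.60 at 16 weeks. On SAMR1 replicates 1 and 2 at 1 year, which also differed in *Mela*, it was 5.52 and 5.58. Whether the tissue taken had a part in the *Mela* gaps was not tested.

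**Figure D2:**
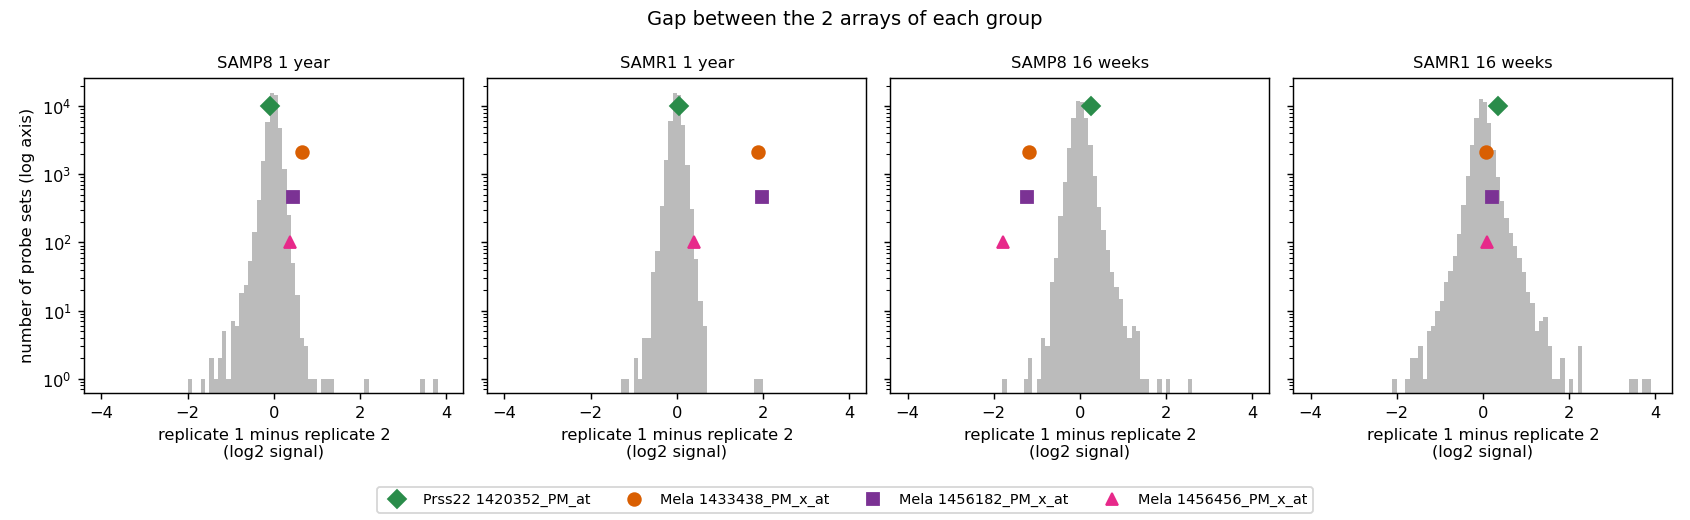
Replicate 1 minus replicate 2 in log2 signal for all 45037 probe sets, as a histogram with a log count axis, 1 panel for each group. Coloured marks give the 4 probe sets, at heights set only to keep them apart. In SAMR1 at 1 year, the gaps of 1.89 and 1.98 of 2 *Mela* probe sets stand beyond all others, and in SAMP8 at 16 weeks all 3 *Mela* probe sets lie far below 0, while *Prss22* stays within the bulk in each group.

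The change with age was not used to choose these genes and was tested with limma across all 45037 probe sets. Of the 12 tests on the 4 probe sets (the age change in SAMP8, the age change in SAMR1 and the difference between them), 0 passed an adjusted p of 0.05. Across the array 5.07% of probe sets passed for age in SAMP8, 5.48% for age in SAMR1 and 0.00222% for the difference between the strains. At an unadjusted p under 0.05, 2 of the 12 would pass, *Prss22* in SAMR1 and 1456456_PM_x_at in SAMP8, where 23.2% of all probe sets passed for age in SAMP8, 23.5% for age in SAMR1 and 6.92% for the difference.

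*Prss22* at 1 year against 16 weeks changed by −0.16 in SAMP8 (standard error 0.12, 95% interval −0.44 to 0.12, limma adjusted p = 0.483), and the arrays of the ages overlapped. In SAMR1 both arrays at 1 year were below both at 16 weeks, a separation of the ages that 52.4% of all probe sets had in SAMR1. The difference in SAMR1 was −0.42 (standard error 0.12, 95% interval −0.69 to −0.14), with a limma adjusted p of 0.0855. Without replicate 2 of SAMR1 at 16 weeks this difference was −0.59, with a limma adjusted p of 0.0269. Markers of regions outside the cortex also differed between the SAMR1 ages. Their mean over 16 genes was 5.52 and 5.58 in SAMR1 at 1 year, against 5.76 and 6.00 in SAMR1 at 16 weeks. Of the 16, 3 passed the limma test as lower at 1 year, beside 3.78% of all genes. They were the hypothalamic peptide genes *Pmch* and *Avp* and the glutamate transporter *Slc17a6*. The age change of the whole list had a median of −0.08 and ran from −2.35 to 0.69. At 16 weeks the list mean was higher on SAMR1 replicate 2, where *Prss22* was lower. The part of these markers in the *Prss22* difference was not tested. The age change of *Prss22* in SAMP8 minus that in SAMR1 was 0.26 (95% interval −0.14 to 0.65, limma adjusted p = 0.842).

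*Mela* was higher at 1 year than at 16 weeks on both SAMP8 arrays for each probe set, but by amounts within its spread. A separation of the ages like this was present in 52.4% of all probe sets in SAMP8. The difference in SAMP8 was 1.18 for 1433438_PM_x_at (95% interval −0.11 to 2.46, limma adjusted p = 0.256). It was 1.24 for 1456182_PM_x_at (95% interval −0.08 to 2.56, limma adjusted p = 0.242) and 1.09 for 1456456_PM_x_at (95% interval 0.05 to 2.12, limma adjusted p = 0.198). Each interval therefore held more than a doubling, and the first 2 also held 0. Without replicate 2 of SAMP8 at 16 weeks, the last difference was 1.98, with a limma adjusted p of 0.0465, and without replicate 1 it was 0.20.

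In SAMR1 the *Mela* ages differed by 0.92, 1.09 and 0.23 for the 3 probe sets, with limma adjusted p-values of 0.374, 0.301 and 0.815. These differences rested on replicate 1 at 1 year, without which they were −0.03, 0.10 and 0.03, and for the first 2 they start from a SAMR1 signal within the controls at 16 weeks. The age change in SAMP8 minus that in SAMR1 was 0.26 (95% interval −1.56 to 2.08), 0.16 (95% interval −1.71 to 2.02) and 0.86 (95% interval −0.61 to 2.33), so that neither a wider nor a narrower strain gap at 1 year could be told from these arrays. The limma adjusted p-values were 0.977, 0.988 and 0.861.

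**Figure D3:**
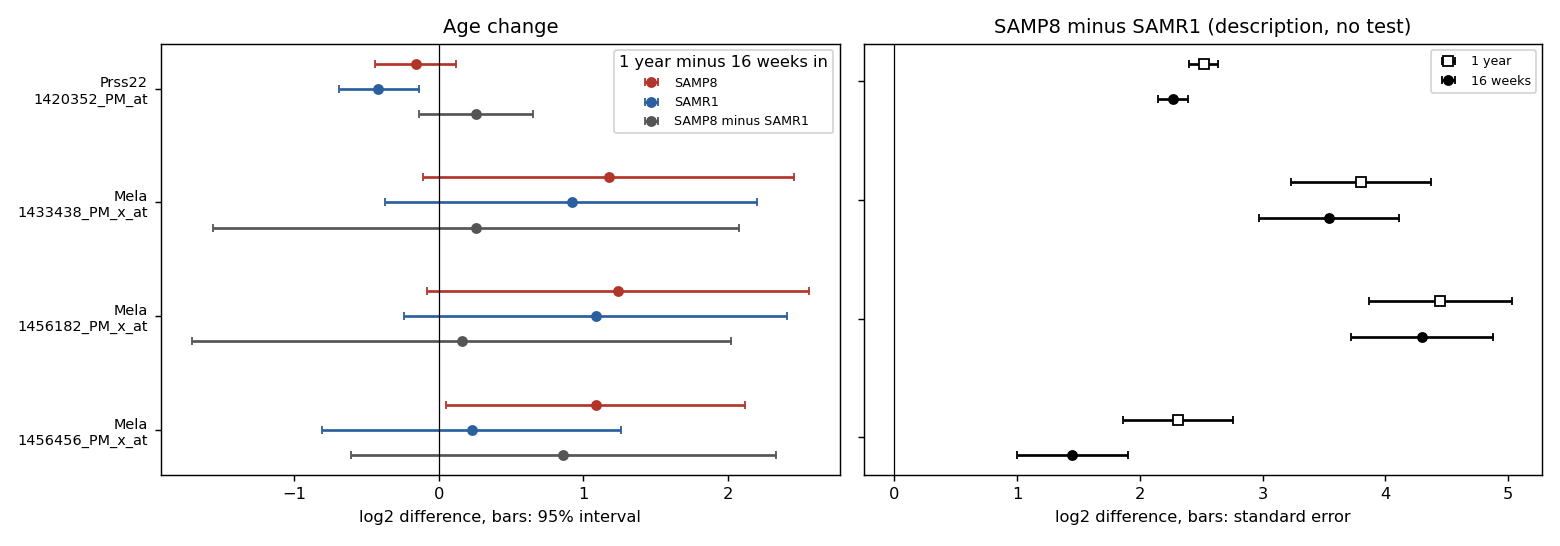
Log2 differences of the 4 probe sets, with 1 year minus 16 weeks in SAMP8, in SAMR1 and between the strains on the left (bars are 95% intervals) and SAMP8 minus SAMR1 at 1 year and at 16 weeks on the right (bars are standard errors). The intervals of *Prss22* are narrow, from −0.44 to 0.12 in SAMP8, and those of *Mela* reach from −0.08 to 2.56 for 1456182_PM_x_at in SAMP8.

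*Prss22* lies on chromosome 17 of the mouse reference gene table, in a stretch that holds other serine protease genes of its family. The 10 nearest measured genes on each side, each by its brightest probe set, were compared between the strains to see whether the surroundings of the gene moved with it. Of these 20 genes, 0 passed the limma test in SAMP8 against SAMR1 at 1 year and 0 at 16 weeks, where 0.617% and 1.07% of all 19761 genes passed. At an unadjusted p under 0.05, 3 of the 20 passed at 1 year and 3 at 16 weeks, beside 7.59% and 13.2% of all genes. The differences ran from −0.08 to 0.24 at 1 year and from −0.31 to 0.38 at 16 weeks, with medians of 0.02 and −0.02. The nearest gene on 1 side, *Prss30*, had signals of 2.97 and 2.99 in SAMP8 at 1 year, against 3.01 and 2.95 in SAMR1 at 1 year. The nearest on the other side, *Prss27*, had 2.91 and 2.88 in SAMP8 at 1 year, against 2.87 and 2.88 in SAMR1 at 1 year. Of the 20 genes, 5 were within the range of the nonspecific controls on all 8 arrays and 13 were above it on all 8. *Prss30* and *Prss27* were among the 5, and a strain difference could not be measured for genes within that range. The 4 SAMP8 arrays lay on 1 side of the 4 SAMR1 arrays for 2 of the 20 neighbours, or 10%, against 4.65% of all probe sets. With age, 1 of the 20 passed in SAMR1 (5.17% of all genes) and 0 in SAMP8 (5.09%). That gene was *Abca3*, a lipid transporter of the lung, at −0.43 (limma adjusted p = 0.0118). *Mela* has no entry in the gene table used here, so its surroundings were not analysed.

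**Figure D4:**
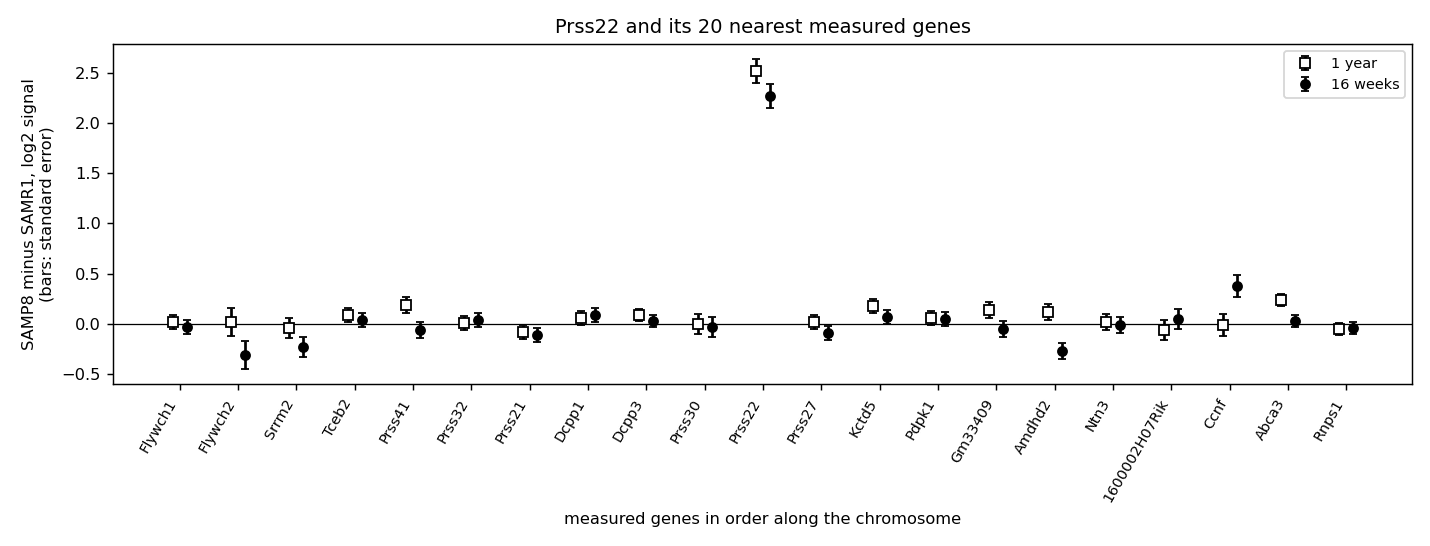
SAMP8 minus SAMR1 in log2 signal for *Prss22* and the 20 nearest measured genes in chromosome order, at 1 year (open squares) and at 16 weeks (filled circles), with standard errors as bars. *Prss22* stands at 2.52 and 2.27, and the neighbours lie between −0.31 and 0.38.

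Of 10 measured genes of the tryptase and testisin family, 0 passed the limma test in either strain comparison. At an unadjusted p under 0.05, 2 passed at 1 year and 0 at 16 weeks, where 7.59% and 13.2% of all genes passed, shares that also stand behind the unadjusted counts of the lists that follow. Of the 10 genes, 5 were within the range of the nonspecific controls on all 8 arrays and 3 were above it on all 8, and a strain difference could not be measured for genes within it. The differences had medians of 0.02 at 1 year and −0.07 at 16 weeks. The mast cell tryptases *Tpsb2* and *Tpsab1* had signals of 3.52 and 3.44 for *Tpsb2* in SAMP8 at 1 year, against 3.46 and 3.44 in SAMR1 at 1 year, and for *Tpsab1* 3.54 and 3.53 in SAMP8, against 3.47 and 3.53 in SAMR1. *Prss29*, a protease of the uterus, rose with age in SAMP8 by 0.41 (limma adjusted p = 0.04), the only call of this family in the 5 comparisons. Among 31 further trypsin-like proteases 0 passed between the strains at either age (1 at 1 year and 3 at 16 weeks unadjusted), with 15 of the 31 within the controls on all 8 arrays, and *Prss23* rose with age in SAMR1 by 0.69 (limma adjusted p = 0.0479). The urokinase and plasmin system, on which the human enzyme can act, also had 0 of 24 genes called between the strains at 1 year and at 16 weeks (5 and 6 unadjusted), with 4 of the 24 within the controls on all 8 arrays. Urokinase itself, *Plau*, had 2.92 and 2.91 in SAMP8 at 1 year, against 3.02 and 2.88 in SAMR1, and lay within the range of the nonspecific controls. Tissue plasminogen activator, *Plat*, had 6.64 and 6.87 in SAMP8 at 1 year, against 6.13 and 6.53 in SAMR1. With age, the plasmin inhibitor *Serpinf2* fell by 0.43 in SAMP8 (limma adjusted p = 0.0179) and by 0.30 in SAMR1 (0.0359), and the protease inhibitor *Spint2* rose by 0.29 in SAMP8 (0.0429). At 1 year *Serpinf2* was within the range of the nonspecific controls on every array, so its falls are no exact sizes.

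The genes by which cells admit or restrict murine leukaemia viruses gave a single call between the strains. Of 23 measured, 0 passed the limma test at 1 year and 1 at 16 weeks, where 0.617% and 1.07% of all genes passed. At an unadjusted p under 0.05, 2 passed at 1 year and 5 at 16 weeks, beside 7.59% and 13.2% of all genes. The call was *Cnp*, a myelin enzyme with antiviral activity, at −0.38 in SAMP8 minus SAMR1 (limma adjusted p = 0.0339). The ecotropic receptor gene *Slc7a1* lay between 7.35 and 7.55 on all 8 arrays, also on those where 1456182_PM_x_at was within the range of the controls. The restriction gene *Fv1* had 4.67 and 4.68 in SAMP8 at 1 year, against 4.70 and 4.69 in SAMR1. At 16 weeks *Fv1* had 4.82 and 4.81 in SAMP8, against 4.57 and 4.68 in SAMR1, a difference of 0.19. *Bst2*, which tethers budding virus, had 3.44 and 3.47 in SAMP8 at 1 year, against 3.37 and 3.48 in SAMR1. Its signals at 16 weeks were 3.60 and 3.59 in SAMP8, against 3.49 and 3.27 in SAMR1, a difference of 0.22. *Fv1* and *Bst2* were among the 5 unadjusted passes at 16 weeks and were not called after adjustment. These *Bst2* values lay within the range of the controls at both ages, so its difference is no exact size. *Ifitm2*, an interferon-induced inhibitor of virus entry, fell with age in both strains, by 0.42 in SAMP8 (limma adjusted p = 0.0336) and by 0.39 in SAMR1 (0.0376). Of 29 genes of proviral silencing 0 passed between the strains at either age (2 at 1 year and 4 at 16 weeks unadjusted). The corepressor *Trim28* had 8.62 and 8.75 in SAMP8 at 1 year, against 8.64 and 8.62 in SAMR1, and the histone methyltransferase *Setdb1* had 6.17 and 6.18, against 6.22 and 6.25 in SAMR1. With age in SAMR1, 1 silencing gene was lower, *2810474O19Rik*, at −0.59 (limma adjusted p = 0.0202).

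Among 14 measured genes of endogenous retroelement origin, 1 passed at 1 year and 0 at 16 weeks (3 and 4 unadjusted). It was *Arc*, a neuronal activity gene of retrotransposon descent, at 8.07 and 8.27 in SAMP8 at 1 year, against 7.15 and 7.03 in SAMR1, a difference of 1.08 (limma adjusted p = 0.0236). Of 29 genes of nucleic acid sensing and interferon response, 1 passed at 1 year and 0 at 16 weeks. At an unadjusted p under 0.05, 10 of the 29 passed at 1 year and 12 at 16 weeks, beside 7.59% and 13.2% of all genes. The interferon-induced gene *Ifi27* had 7.08 and 7.22 in SAMP8 at 1 year, against 6.46 and 6.58 in SAMR1, a difference of 0.63 (limma adjusted p = 0.0223). The mean of these 29 genes was 4.42 to 4.46 on the SAMP8 arrays and 4.29 to 4.33 on the SAMR1 arrays, with median differences of 0.07 at 1 year and 0.14 at 16 weeks, where the median of all genes was 0.01 and 0.00. The SAMR1 array with the highest *Mela* signal, replicate 1 at 1 year, had 4.31, which lies within the SAMR1 range.

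Markers of cells in which the members are known were examined on the same arrays. Of 13 melanocyte, 14 mast cell, 14 epithelial and 17 leukocyte markers, 0 passed between SAMP8 and SAMR1 at either age. At an unadjusted p under 0.05, 3 melanocyte and 1 leukocyte markers passed at 16 weeks and 1 epithelial marker at 1 year, beside 13.2% and 7.59% of all genes at these ages. On all 8 arrays 1 of the melanocyte, 7 of the mast cell, 5 of the epithelial and 4 of the leukocyte markers were within the range of the nonspecific controls. The melanocyte mean was 4.46 to 4.54 in SAMP8 and 4.48 to 4.57 in SAMR1, the mast cell mean 3.84 to 3.91 and 3.85 to 3.92, the epithelial mean 3.98 to 4.02 and 3.95 to 4.04, and the leukocyte mean 4.21 to 4.29 and 4.24 to 4.28, with SAMP8 given before SAMR1 each time. All these means overlapped between the strains. Of the genes of cortical glutamatergic neurons, 15 of 15 were above the array median on all 8 arrays, and so were 10 of 16 markers of regions outside the cortex and 4 of 12 of choroid plexus. Choroid plexus (12 genes) and meninges (14 genes) had 0 calls between the strains (3 and 1 genes unadjusted at 1 year, 1 and 1 at 16 weeks). The choroid plexus mean spread from 4.29 to 4.90 in SAMP8 and from 4.32 to 5.07 in SAMR1. Calls in the remaining lists were *Aif1* among 13 microglial genes (0.51 at 1 year), *Lamp5* among the glutamatergic genes (0.47 at 16 weeks), *Vip* among 8 interneuron genes (0.90 at 16 weeks), *Abcb1a* (0.92 at 1 year and 0.97 at 16 weeks) and *Slco1c1* (−0.50 at 1 year) among 9 endothelial genes, and *Avp* (−2.33 at 16 weeks) and *Prkcd* (−0.73 at 16 weeks) among the 16 markers of other regions, all as SAMP8 minus SAMR1.

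The genes whose pattern over the 8 arrays was most like that of *Prss22* were ranked by Pearson correlation among 873 probe sets that ranged over at least 1 log2 unit. The arrays fall into strains, so these correlations mostly describe a shared strain difference and are given without a p. Of the 10 closest genes, 9 are reported, which were *Gpr137b-ps* (r = 0.991), *H2-D1* (0.990), *Dctn3* (0.985), *Galc* (0.983), *Soga3* (0.983), *Ggps1* (0.982), *Adat2* (0.982), *Pigo* (0.980) and *Abcb1a* (0.973). All 41 probe sets not annotated to *Prss22* with r above 0.95, of which 19 carry no single gene symbol, had the 4 SAMP8 arrays above the 4 SAMR1 arrays. *Galc*, the lysosomal galactosylceramidase, was close to *Prss22* also in the size of its difference, with signals of 5.97 and 6.06 in SAMP8 at 1 year, against 3.73 and 3.44 in SAMR1. *Dctn3*, a dynactin subunit, had 9.31 and 9.21 in SAMP8 at 1 year, against 7.71 and 7.84 in SAMR1. Of these 9 genes, 1 was on chromosome 17 with *Prss22* (*H2-D1*, a class I histocompatibility gene), and the 9 came from 6 chromosomes. For 4 of the 9 the probe set was not the brightest of its gene, and the brightest one need not share the pattern. The brightest *H2-D1* probe set differed between the strains by −0.04 at 1 year and 0.03 at 16 weeks. Those differences were 1.01 and 0.93 for the one named here. For *Ggps1* and *Abcb1a* the brightest one differed by 0.75 and 0.92 at 1 year. For *Pigo*, an enzyme of membrane anchor synthesis, the brightest probe set differed between the strains by 0.05 at 1 year and −0.08 at 16 weeks, against 2.13 and 1.64 for the probe set named here.

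Few probe sets had the pattern of *Mela*. Those not annotated to it with r above 0.95 numbered 2, 5 and 0 for 1433438_PM_x_at, 1456182_PM_x_at and 1456456_PM_x_at, and 1, 4 and 0 of them carry no single gene symbol. The closest gene was the same for all 3, *Ly6a*, a surface antigen of the Ly6 family, with r of 0.954, 0.960 and 0.921. *Ly6a* had 6.21 and 6.36 in SAMP8 at 1 year, against 5.63 and 5.34 in SAMR1, and 5.98 and 6.22 in SAMP8 at 16 weeks, against 5.54 and 5.57 in SAMR1. It shared with *Mela* the lowest SAMP8 value on replicate 1 at 16 weeks and the highest SAMR1 value on replicate 1 at 1 year, though the steps were small. The other genes named for all 3 probe sets were *Rgs5*, a pericyte signalling regulator, *Abcb1a*, an efflux transporter of brain capillaries, and *Mbd4*, a DNA glycosylase. Their probe sets were not the brightest of their genes, and for *Rgs5* the brightest one differed between the strains by −0.20 at 1 year and 0.00 at 16 weeks. *Abcb1a* was the only one of these also among the 9 reported for *Prss22*.

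**Figure D5:**
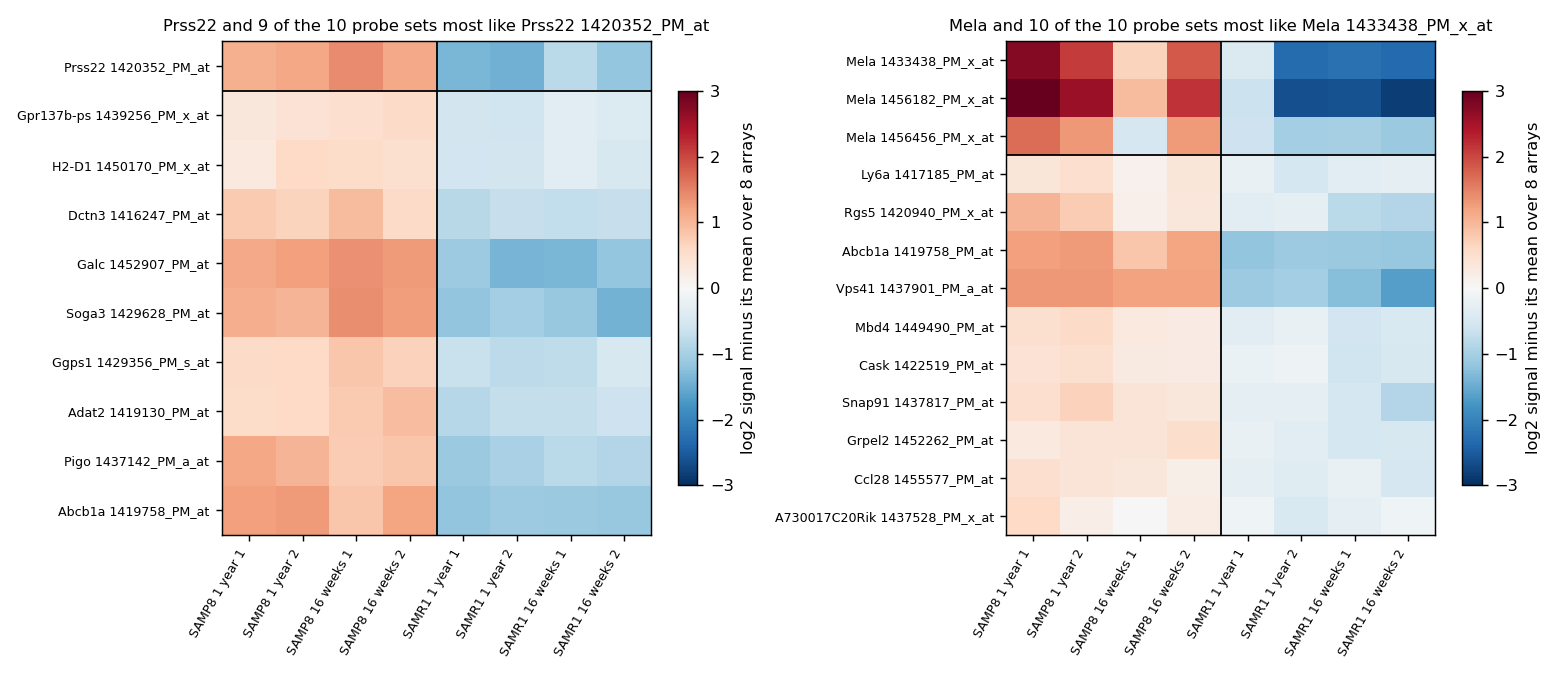
Log2 signal minus its mean over the 8 arrays for *Prss22* and the 9 reported probe sets most like it on the left, and for the 3 *Mela* probe sets and the 10 most like 1433438_PM_x_at on the right, with 1 column for each array and the 4 SAMP8 arrays left of the 4 SAMR1 arrays. The steps of *Prss22* and its nearest genes follow strain, and the paler SAMR1 column of *Mela* is replicate 1 at 1 year.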

How the data were processed

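Cortical RNA was hybridised to 8 arrays of the MG-430 PM type, 2 for each of the 4 groups. Per the methods, the authors normalised the scans with the RMA algorithm (Expression Console) and deposited a log2 signal, to 2 decimals, for each probe set on each array. The sources differ on the kit used for labelling (WT PLUS per the labels, 3′ IVT PLUS per the design text, 3′ IVT Express per the methods), so the part of a transcript that was labelled is not settled. The tools named in the submitters' processing notes are limma, RMA and the Transcriptome Analysis Console, with versions not given in the sources used here. The tables of the authors' own comparisons, which hold group averages, fold changes and p-values, were not used. The deposited value table of the series held the same values (360296 of 360296 within 0.001).

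Of 45077 probe sets, 40 controls were left out. The remaining 45037 were tested without a filter, of which 36109 carry 1 gene symbol, 1236 several, 7628 none and 64 a date. A model of 4 group means was fitted to the 8 arrays with limma 3.58.1 (R 4.3.3). It had 4 residual and 4.52 prior degrees of freedom. P-values were adjusted by Benjamini-Hochberg over the 45037 probe sets. Every adjusted p is from this fit, except those given without an array or with a replicate block. The methods give 2 mice for each age without saying which array holds which animal, so the p-values cover only the spread among arrays, which may be technical, and the number of arrays limits the precision. Array medians lay between 4.32 and 4.36, and replicate arrays correlated at 0.9950 to 0.9981, against 0.9900 to 0.9962 between groups. The script was tested on simulated data.

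The members and the gene lists were chosen with earlier results of these data known, and p-values are given for the members only for age. Genes named are the members, the 10 single-symbol probe sets most correlated with each member probe set among those with a range of at least 1, called neighbours, called list genes (at most 4 a list by size of change) and a few genes that carry a list, such as *Slc7a1*. Of the genes most like *Prss22*, 1 is not reported here. A list gene is represented by its brightest probe set. Neighbours and chromosomes come from the RefSeq table of GRCm38.p6, used for names and gene order only, since no build is named for the array annotation. No mature sequence, promoter or protein of either member was in the reference tables used here, so none is shown. Alternatives were an intensity trend in the prior, only the 4 arrays of a comparison, a replicate block, array weights, centring, quantile normalization, the other deposited table, a filter on dim probe sets, every probe set of a list gene and leaving out each array.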

Additional observations from a re-analysis of the deposited data

How the results depend on the processing

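Of 316 values of the members under the alternatives, 298 kept their direction and side of the threshold or, where untested, lay within the spread between replicates. Of the others 8 changed direction and 2 passed the threshold, and in 8 untested strain differences the value moved by more than the spread between replicates. All 18 came from leaving out 1 array. Many of the 298 could not change direction. The other deposited table held the same values, and several fits changed only the standard errors. Leaving out an array did not alter a difference that does not use it. Every SAMP8 array lay above every SAMR1 array for each probe set, so the strain differences could not change sign with an array left out. At 1 year they ranged from 2.48 to 2.56 for *Prss22*, from 2.85 to 4.74 for 1433438_PM_x_at, from 3.46 to 5.44 for 1456182_PM_x_at and from 2.12 to 2.51 for 1456456_PM_x_at, and at 16 weeks from 2.09 to 2.44, 2.95 to 4.12, 3.69 to 4.91 and 0.56 to 2.34 in the same order. The values of 1433438_PM_x_at and 1456182_PM_x_at rest in part on SAMR1 arrays within the range of the nonspecific controls, so their high ends are not exact sizes. The age change in SAMP8 ranged from −0.29 to −0.03, 0.59 to 1.76, 0.63 to 1.85 and 0.20 to 1.98. The age change in SAMR1 ranged from −0.59 to −0.24, −0.03 to 1.86, 0.10 to 2.08 and 0.03 to 0.42. The difference of the age changes ranged from 0.08 to 0.43 for *Prss22* and from −0.69 to 1.21, −0.84 to 1.15 and −0.03 to 1.75 for the *Mela* probe sets. With a lone array left in a group, its spread is taken to be that of the others. The difference of the *Mela* age changes turned negative for 1433438_PM_x_at and 1456182_PM_x_at without SAMR1 at 1 year replicate 2 (−0.69 and −0.84), SAMP8 at 1 year replicate 1 (−0.07 and −0.07) or SAMP8 at 16 weeks replicate 1 (−0.33 and −0.46). The same happened to 1456456_PM_x_at without SAMP8 at 16 weeks replicate 1 (−0.03), and the SAMR1 age change of 1433438_PM_x_at was −0.03 without SAMR1 at 1 year replicate 1. Such signs come from fewer arrays of a wide spread.

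The replicate numbers did not pair the arrays, since same-numbered arrays deviated together with correlations between −0.086 and 0.196. With a replicate block no call of the members changed, and the age change of *Prss22* in SAMR1 was −0.42 with a limma adjusted p of 0.058.

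All 4 probe sets passed the filter on dim probe sets (mean log2 signal over the 8 arrays at or above 4.3475), 1433438_PM_x_at and 1456182_PM_x_at through their SAMP8 arrays, so this says nothing on their SAMR1 signal. The number of calls across the array moved more than the members' values. Leaving out single arrays gave 5 to 3671 calls with age in SAMP8 (2283 with all arrays) and 19 to 2408 in SAMR1 (2466), and a fit of the 4 SAMR1 arrays alone gave 0 (9746 at an unadjusted p under 0.05). With every probe set of a gene counted in place of the brightest, calls with age in SAMP8 and SAMR1 became 4 and 5 for virus entry and restriction (1 and 1 before), 3 and 5 for silencing (0 and 1), 6 and 4 for glutamatergic genes (2 and 0) and 1 and 1 for choroid plexus (0 and 0). Calls with age in SAMR1 became 2 for the urokinase system (1) and 3 for the neighbours of *Prss22* (1), and those in SAMP8 became 1 for further proteases (0) and 1 for retroelement genes (0). Between the strains at 16 weeks, *Serpini1* was added to the urokinase system and *Camk2a* to the glutamatergic genes. A gene with more probe sets has more chances of a call under this rule, and the 29 silencing genes have 81. The share of all genes under this rule is not given here. Of all probe sets, 5.07% passed with age in SAMP8, 5.48% with age in SAMR1 and 1.23% between the strains at 16 weeks.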
